A study of Mus musculus with 4 samples.

Results

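The 2276 genes described here were the well-expressed genes of a VEGF-C experiment on sorted cells of the mouse hippocampus. They were selected on their measured levels, as the genes with an FPKM (a fragment count scaled by transcript length and library) of at least 10 in all 4 libraries. They made up 9.75% of the 23334 gene rows analysed, and none of them rests on a value listed at 0. For each gene the VEGF-C response of a population was log2((FPKM with VEGF-C + 1) / (FPKM without + 1)), and the difference of responses was the response in YFP-positive cells minus that in YFP-negative cells. A positive difference means that the response was more positive in YFP-positive cells, and a negative difference that it was more positive in YFP-negative cells. The difference of responses ordered the genes, so the values at its ends are descriptions of the genes that were picked and carry no test.

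All cells came from C57BL/6 mice with the Vegfr3::YFP reporter, in which a yellow fluorescent protein marks cells that use the Vegfr3 (Flt4) gene, and all were sorted by that fluorescence. The labels name the YFP-positive cells neural stem cells that originated in the subgranular zone, where new granule neurons are born in the dentate gyrus, and the YFP-negative cells neurons. The cells of 2 groups of 16 mice were sorted, and either population was kept in culture for 18 h, untreated or treated with 50 ng/ml of VEGF-C. The 4 groups, untreated and treated cells of each population, had 1 library each, made from material of many mice. No difference below therefore has a replicate check, no p-value was computed, and an effect of VEGF-C cannot be told apart from the spread between libraries.

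VEGF-C is a secreted ligand of the receptor tyrosine kinase VEGFR3, best known for the growth of lymphatic vessels. The receptor signals through the ERK and PI3K-AKT kinase pathways. In the dentate gyrus, radial glia-like stem cells give rise to progenitors and then to granule neurons. Genes that are well expressed in every library of such an experiment are often those that all cells use for protein synthesis, protein turnover, respiration, splicing and membrane traffic.

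The difference of responses has a simple arithmetic: it adds the log2 levels of the treated YFP-positive and the untreated YFP-negative library, and subtracts those of the other 2 libraries. The first pair held 60326308 and 16275369 implied fragments (normalized counts divided by the value of 1 fragment in that library), with 13528 and 13132 genes above 0. The second pair held 8561944 and 8390507 implied fragments, with 9669 and 9556 genes above 0. The difference of responses is thus also a contrast of the 2 libraries with more detected genes against the 2 with fewer, and the 2 contrasts cannot be told apart in this design. The summed FPKM of the gene-poor pair was 796085 and 767471, against 530768 and 603907 in the gene-rich pair.

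The member genes followed that split. Their median FPKM was 90.2 in untreated and 57.3 in treated YFP-positive cells, and 54.0 in untreated and 81.6 in treated YFP-negative cells. The median VEGF-C response was −0.61 in YFP-positive and 0.58 in YFP-negative cells, and the median difference of responses was −1.10. Scaling the 4 libraries to the medians of their ratios over these genes moved that median to 0.082, so the sign of the median depends on the scaling. The differences of single genes and gene lists are therefore also given relative to the member median of −1.10; these relative values hardly change with the scaling.

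Some defining markers of neurons were near 0 in both libraries labelled neurons, while others were detected there. The neuronal splicing factor Rbfox3 (NeuN) had 0.150 and 0.231 FPKM in untreated and treated YFP-negative cells, and the synaptic vesicle protein Syt1 had 0.0414 and a listed 0. The synaptic protein Snap25 was present there at 21.1 and 39.9 FPKM, and Dcx at 11.7 and 20.9. Map2 had 6.77 and 1.95 FPKM in these libraries, Prox1 4.83 and 0.0663, and Neurod1 0.550 and 9.03. In these libraries 26 oligodendrocyte markers summed to 12711 and 17388 FPKM, against 354 and 462 for 31 markers of mature neurons. In the YFP-positive libraries Sox9, a transcription factor of neural stem cells and astrocytes, stood at 445 and 191 FPKM, against 5.58 and 1.12 in the YFP-negative ones. Gfap (35.6 and 66.3 against 4.64 and 0.0515) and Hopx (62.7 and 40.4 against 5.65 and a listed 0) were higher there too. Nes went the other way, at 39.0 and 43.2 against 82.3 and 78.0, and Sox2 was mixed, at 114 and 42.1 against 31.2 and 58.0. The populations are therefore called only YFP-positive and YFP-negative below.

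As deposited, VEGF-C responses were of opposite sign in the 2 populations for 1373 members (60.3%). In YFP-positive cells 178 members (7.82%) were at least 2-fold higher with VEGF-C and 768 (33.7%) lower, against 39.3% and 22.7% of the 12769 genes with at least 1 FPKM in at least 1 library. In YFP-negative cells 701 members (30.8%) were higher and 165 (7.25%) lower, against 21.8% and 38.9% of the 12769. Of the 2276 genes, 854 (37.5%) responded by less than 2-fold in both populations. Levels were lower with VEGF-C in YFP-positive cells and higher with it in YFP-negative cells for 1206 genes (52.99%), and the other way round for 167 (7.34%). Which way was more frequent depends on the scaling: the 2 counts became 600 and 594 after scaling to the median of ratios, 728 and 464 after equal sums of FPKM, and 146 and 1359 after scaling to the upper quartile. Under the upper quartile the counts at 2-fold turned too, to 777 higher and 99 lower in YFP-positive cells and 76 and 787 in YFP-negative cells; under the median of ratios they were 382 and 323, and 272 and 356. At 2-fold or more in both populations, 268 genes were lower in YFP-positive and higher in YFP-negative cells, 14 had the opposite pair of responses, 59 were higher in both and 49 lower in both. Over the genes, none of which is a replicate of another, the 2 responses had a Pearson r of −0.058 and a Spearman rho of −0.056 (n = 2276).

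By the difference of responses, 208 genes (9.14%) were higher and 1226 (53.9%) lower by 2-fold or more. Over the wider 12769 genes the shares leaned the other way, with 51.7% higher and 27.4% lower and a median difference of 1.11. Relative to the member median, 552 member genes (24.3%) were higher and 516 (22.7%) lower. The differences ranged from −6.18 to 5.19, with a standard deviation of 1.505 and an interquartile range of 1.84. Within the members, the difference divided by 2 had a standard deviation of 0.75, close to the 0.71 of the mean VEGF-C response over both populations, while the mean ratio between the populations had 1.01.

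**Figure D1:**
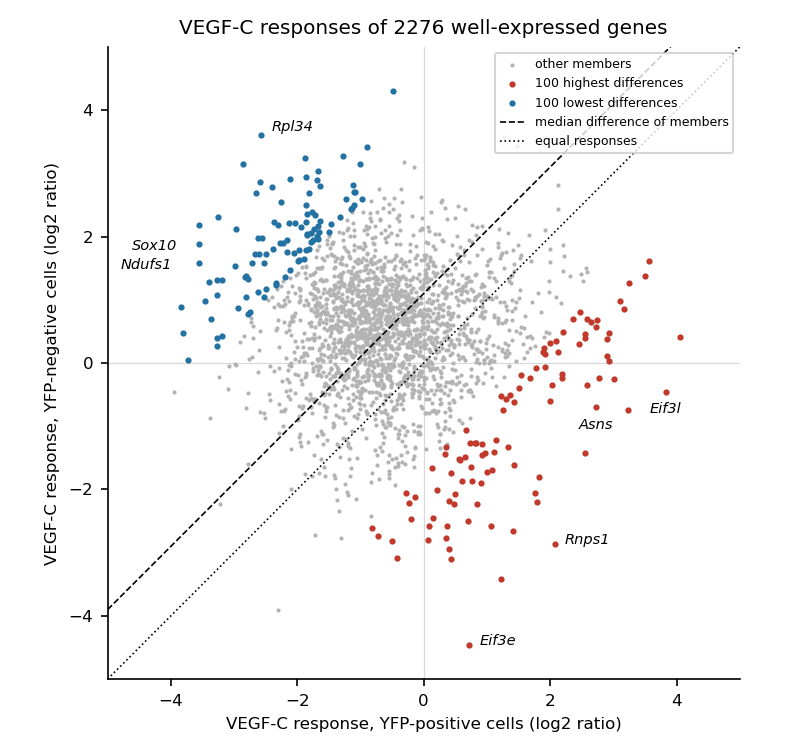
VEGF-C response of each member gene in YFP-positive cells (horizontal axis) and YFP-negative cells (vertical axis), both as log2 ratios of FPKM + 1, 1 point per gene. Red and blue points are the 100 highest and 100 lowest differences of responses; the dashed line marks the median difference of −1.10 and lies to the upper left of the dotted line of equal responses.

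The spread did not shrink steadily with expression. In 4 equal groups of genes by mean FPKM, from lowest to highest, the standard deviation of the difference was 1.30, 1.67, 1.75 and 1.23. The medians of these groups lay between −1.18 and −1.06. A floor of 10 FPKM in every library keeps small ratios of very low values out, but it does not remove counting error: the fewest implied fragments behind a member's value were 15, 173, 35 and 3 in the 4 libraries, in the order used throughout, which is untreated and then treated YFP-positive cells, followed by untreated and then treated YFP-negative cells. All values of 4 libraries below follow that order, and an FPKM is a level per transcript length.

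On either side of the floor lay genes with like lowest levels. Just inside it were Rbbp8, with its lowest level at 10.0003 FPKM and a difference of −1.24, Med13 at 10.0089 with −0.16, and Srpr at 10.0188 with 1.01. Just outside were Map3k12 at 9.99891, Stard4 at 9.99742 and Cdr2 at 9.98872, with differences of −0.56, −2.18 and −0.63.

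The genes with the highest differences had varied functions. Highest of all was Eif3e, a subunit of the translation initiation factor eIF3, at 170, 280, 261 and 10.9 FPKM, a difference of 5.19. It was similar in 3 libraries and low in the treated YFP-negative library alone, where 114 implied fragments gave a 95% Poisson interval of 8.96 to 13.1 FPKM. Another eIF3 subunit, Eif3l, stood at 12.0, 184, 75.5 and 54.5 FPKM, with a difference of 4.30. Here the low library was the YFP-positive one without VEGF-C (147 implied fragments, 10.1 to 14.1 FPKM). Intervals of this kind cover counting error only, since amplified fragments are not independent molecules.

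Rnps1, an RNA-binding protein of the exon junction complex, was at 36.3, 156, 95.01 and 12.3 FPKM, a difference of 4.93. Its response was 2.07 in YFP-positive and −2.86 in YFP-negative cells, so it was high in both gene-rich libraries. The tissue plasminogen activator Plat, a secreted protease, showed the same order at 17.2, 62.2, 51.2 and 10.4 FPKM, with a difference of 3.99. So did Api5, an inhibitor of apoptosis, at 13.1, 48.7, 37.8 and 10.2 FPKM, with 3.62. These genes had their 2 highest levels in the gene-rich libraries and their 2 lowest in the gene-poor ones.

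Gpd1, the cytosolic glycerol-3-phosphate dehydrogenase, was at 67.9, 160, 132 and 11.4 FPKM, a difference of 4.65. Pmm1, a phosphomannomutase of the pathway to glycoproteins, was at 104, 141, 114 and 12.4 FPKM, with 3.54. Trappc4, a subunit of the TRAPP complex that tethers vesicles at the Golgi, was at 55.3, 117, 103 and 16.4 FPKM, with 3.65. All 3, like Eif3e, owed most of the difference to a low level in the treated YFP-negative library. Cfl2, a cofilin that severs actin filaments, belonged with them at 57.0, 75.3, 168 and 21.0 FPKM and 3.34.

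Ppp1ca, a catalytic subunit of protein phosphatase 1, was at 29.98, 204, 114 and 70.0 FPKM, a difference of 3.43. Its paralogue Ppp1cc stood at 243, 56.0, 55.2 and 13.1 FPKM and was lower with VEGF-C in both populations, so its difference was only −0.10. Car2, a carbonic anhydrase abundant in oligodendrocytes, stood at 15.7, 276, 1730 and 2296 FPKM, with 3.64. Car2 was high in both YFP-negative libraries and low in the untreated YFP-positive library. Remaining among the 15 highest was 2900097C17Rik, a long intergenic noncoding RNA by its GENCODE M21 type, at 18.8, 66.3, 52.4 and 11.8 FPKM (3.82).

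**Figure D2:**
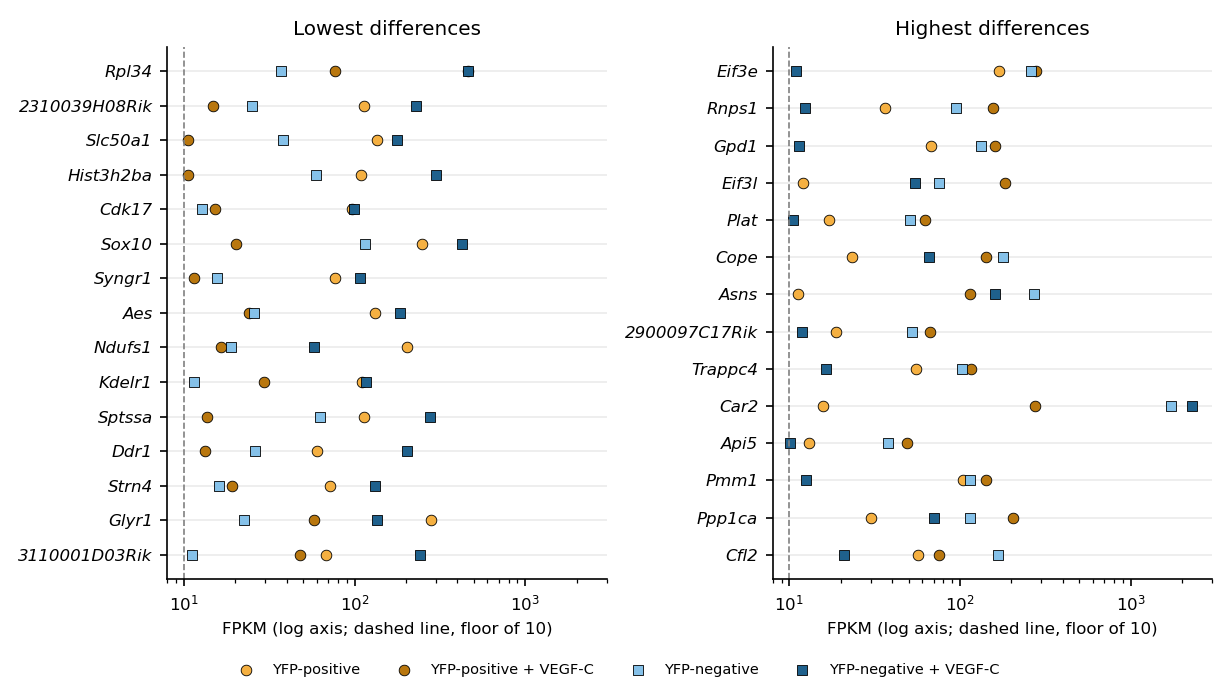
FPKM in each of the 4 libraries (log axis) for the 15 genes with the lowest difference of responses and 14 of the 15 with the highest, 1 symbol per library. Symbols of the untreated YFP-positive library and the YFP-negative library with it lie to the right for the lowest genes and mostly to the left for the highest, and many of the left-most symbols lie near the dashed floor of 10 FPKM.

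The genes with the lowest differences were as varied. Rpl34, of the large ribosomal subunit, was at 463, 76.8, 37.1 and 462 FPKM, a difference of −6.18. Both levels in the gene-poor libraries exceeded both others, and 329 implied fragments put the lowest level between 33.2 and 41.3 FPKM. Ribosomal protein genes have many near-identical processed copies, so single values of this family are uncertain.

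Sox10, the transcription factor that defines the oligodendrocyte lineage, stood at 248.5, 20.1, 115 and 429 FPKM, a difference of −5.45. Its response was −3.56 in YFP-positive and 1.89 in YFP-negative cells. Both libraries of the pair with fewer genes exceeded both others. The corepressor Aes, of the Groucho family, was at 131, 24.0, 25.8 and 184 FPKM, with −5.19. Hist3h2ba, a histone H2B gene, was at 109, 10.5, 59.5 and 300 FPKM, with −5.57, and Glyr1, a nucleosome-binding protein, at 281, 58.1, 22.4 and 136 FPKM, with −4.80.

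Among kinases, Cdk17, a cyclin-dependent kinase of the PCTAIRE group, was at 96.6, 15.2, 12.7 and 99.1 FPKM, a difference of −5.46. The collagen receptor kinase Ddr1 was at 60.6, 13.2, 26.1 and 202 FPKM, with −5.02. Strn4, a striatin that scaffolds phosphatase 2A with kinases, was at 72.0, 19.1, 16.1 and 131 FPKM, with −4.81. In each of these 3 the 2 levels of the gene-poor libraries lay well above the other 2.

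Proteins of membranes made up much of the rest. Slc50a1, a sugar transporter, was at 135, 10.5, 38.3 and 177 FPKM, a difference of −5.74. Syngr1, a synaptic vesicle protein, was at 77.3, 11.4, 15.7 and 107 FPKM, with −5.35. Kdelr1, the receptor that returns resident proteins to the endoplasmic reticulum, was at 111, 29.5, 11.4 and 117 FPKM, with −5.13. Sptssa, a small subunit of the enzyme that starts sphingolipid synthesis, was at 113, 13.6, 62.7 and 276 FPKM, with −5.08. Their lowest level was always in a gene-rich library, with VEGF-C in YFP-positive cells for Slc50a1, Syngr1 and Sptssa and without it in YFP-negative cells for Kdelr1. The uncharacterised 2310039H08Rik and 3110001D03Rik completed the 15, with −6.002 and −4.80.

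Over wider ends the same shape held. The 100 highest differences ran from 1.66 to 5.19 and the 100 lowest from −6.18 to −3.53. For the 100 highest, the lowest of the 4 levels fell in the untreated YFP-positive library in 53 and in the treated YFP-negative library in 47. For the 100 lowest it fell in the treated YFP-positive library in 53 and in the untreated YFP-negative library in 47. That lowest level was under 20 FPKM in 58 and 59 of the 100 genes at the 2 ends, against 724 of all 2276. The median responses were 1.35 in YFP-positive and −1.27 in YFP-negative cells for the 100 highest, and −2.16 and 1.98 for the 100 lowest. These values follow from how the ends were chosen and show only that both populations contributed to each end.

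Transcripts at both ends were shorter at the median than those of all members, while base composition differed little. The median length of the longest transcript was 2049 bases in the 100 highest and 2460 in the 100 lowest, against 2753 in all members with features in GENCODE M21 (2173 of 2276). The median GC content was 49.3% and 50.7%, against 48.8%, and the median exon number was 6 in each set. Across genes, the difference of responses had a Pearson r of −0.018 with log2 transcript length, −0.065 with GC content, −0.004 with log2 exon number and −0.056 with log2 mean FPKM.

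Lists of genes by function covered 815 members, of which 42 were among the 100 highest and 25 among the 100 lowest (4.39% of all members stand at either end). Vesicle trafficking placed 6 of its 45 members among the 100 highest, namely Ap1s1, Cope, Copz1, Gdi2, Rab7 and Sec13, and 2 among the 100 lowest, Vamp2 and Vps29. Complex I placed 4 of 33 at the high end (Ndufs5, Ndufs6 and Ndufs8 among them) and 2 at the low end (Ndufa1 and Ndufs1). The lysosome and vacuolar proton pump list placed 4 of 29 at the high end (Atp6v0d1, Atp6v1e1, Ctsz and Lamp2) and 1, Grn, at the low end. Cytosolic ribosomal proteins placed none of 83 at the high end and 2 at the low end, Rpl34 and Rps4y2.

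Subunits of the same complex stood at opposite ends. Complex I of the respiratory chain takes electrons from NADH, and its core subunits are needed together. Ndufs1 was at 204, 16.5, 18.8 and 58.2 FPKM, a difference of −5.13, while Ndufs8 was at 23.6, 146, 142 and 112 FPKM, a difference of 2.92. Between them were Ndufs7 with −2.72 and Ndufv2 with −0.28. These 4 core subunits spanned 8.05 log2 units. This and the other complexes below were picked after the values of their genes had been seen.

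Coatomer, the coat of vesicles that return from the Golgi, had 5 of 9 subunits among the members. Cope, its epsilon subunit, was at 23.2, 141, 178 and 65.7 FPKM with a difference of 3.98, and Copz1 had 2.79. Copb2 had −3.22, Copb1 −1.96 and Copa 0.35. In eIF3, 10 of 12 subunits were members and ranged from −1.68 for Eif3b to 5.19 for Eif3e, with a median of −0.58. For the vacuolar proton pump, 10 of 16 measured subunits were members and ranged from −3.15 for Atp6v1b2 to 3.07 for Atp6v0d1.

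The middle of other complexes was narrower, though single genes lay far from it. The small ribosomal subunit had 34 members with an interquartile range of 0.63; 32 of them were at least 2-fold lower and none at least 2-fold higher. Against the member median, 8 of the 34 were lower. The large subunit had 49 members with an interquartile range of 0.65, with 2 higher and 38 lower; relative to the member median the counts were 2 and 6. Its whole range, from Rpl34 to Rpl5, was 7.24, wider than the 7.20 of coatomer and the 6.87 of eIF3. In the CCT chaperonin, which folds actin and tubulin, 7 of 8 subunits were members, from −1.62 for Cct4 to 0.98 for Cct7, with an interquartile range of 0.66. These interquartile ranges lie under the 1.84 of all members.

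**Figure D3:**
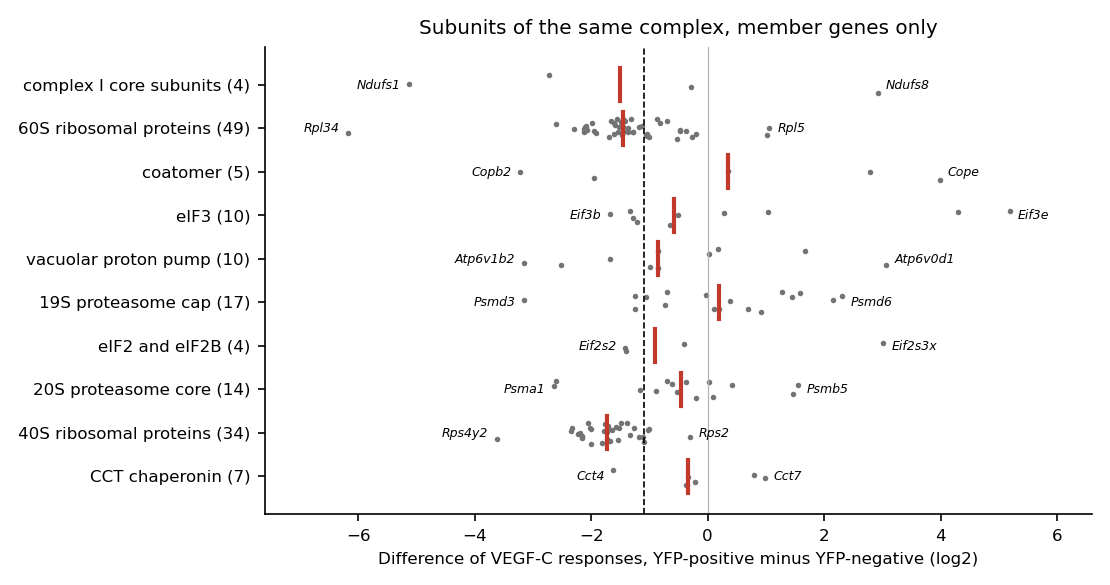
Difference of VEGF-C responses (log2) of member genes in 10 protein complexes, 1 point per gene, with the number of members in parentheses; points are shifted vertically at random for legibility. Red bars are medians, the dashed line is the member median of −1.10, and the complexes are ordered by their range, from the core of complex I (8.05, 4 subunits) to the CCT chaperonin (2.60).

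By function, each count below is to be read against the shares of all members, 9.14% higher and 53.9% lower, or 24.3% and 22.7% relative to the member median. The translation lists split. Of 83 cytosolic ribosomal proteins, 2 were higher and 70 lower by the difference of responses, with a median of −1.53; relative to the member median the counts were 2 and 14 and the median −0.43. Of these 83 genes, 75 were lower with VEGF-C in YFP-positive and higher with it in YFP-negative cells, against 1206 of all 2276 members (52.99%). Both counts are as deposited and depend on the scaling. The count over all members became 600 after scaling to the median of ratios and 146 after scaling to the upper quartile. Rpl5, of the large subunit, was the highest at 433, 415, 293 and 135 FPKM, with 1.06. Rps4y2 at −3.62 and Rpl39 at −2.60 followed Rpl34 at the low end.

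Of 42 translation factors, 5 were higher and 16 lower (median −0.69). Against the member median, 11 were higher and 1 lower (median 0.41). Eif2s3x, the X-linked gamma subunit of eIF2, was at 10.2, 75.8, 60.5 and 50.9 FPKM, with 3.02. Its Y-linked paralogue Eif2s3y, not a member, was at 0.527, a listed 0, 56.2 and 192 FPKM. The cause of this split between the populations was not tested. Eif4g3, a scaffold of the cap-binding complex, had −2.51. The nucleolar and ribosome biogenesis list of 24 had 2 higher and 9 lower, or 6 and 1 relative to the member median, from Fbl at −2.47 to Polr1d at 2.21.

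Mitochondrial ribosomal proteins had the widest interquartile range of the larger lists, 2.85 over 34 members. Mrpl20 stood at 138, 146, 145 and 20.01 FPKM, with 2.87, and Mrps2 at 227, 20.6, 21.3 and 53.4 FPKM, with −4.69. Mrpl35 had −4.10 and Mrps12 −3.86. In all, 6 were higher and 16 lower, or 12 and 11 relative to the member median. Complex I had 4 higher and 20 lower of 33 with a median of −1.39, and complexes II to V had 2 higher and 25 lower of 41 with a median of −1.44. Both lists had 8 higher and 9 lower relative to the member median. Cyc1, of complex III, was the highest of complexes II to V at 52.7, 73.5, 80.4 and 16.3 FPKM, with 2.71, and Atp5d, of the ATP synthase, the lowest at 475, 173, 185 and 695 FPKM, with −3.36.

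Lists of protein turnover had medians above the member median. Of 34 proteasome subunits, 7 were higher and 9 lower (median −0.11), and relative to the member median 17 were higher and 4 lower (median 0.99). The 19S cap, which unfolds ubiquitinated proteins, had a median of 0.19 over 17 members and the 20S core −0.45 over 14. Psmd6, of the cap, was at 13.8, 132, 92.0 and 167 FPKM, with 2.31. Psme3, a regulator of the core in the nucleus, was the lowest at 104, 47.0, 20.3 and 116 FPKM, with −3.59. Of 23 ubiquitin system genes, 3 were higher and 9 lower, or 9 and 3 relative to the member median, between Ube2k at −3.58 and Ube2v1 at 2.36.

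Membrane traffic and glycolysis also had medians above the member median. Of 45 vesicle trafficking genes 9 were higher and 15 lower, and 16 and 6 relative to the member median, with a relative median of 0.68. The synaptic vesicle SNARE Vamp2, at 246, 17.7, 53.6 and 55.4 FPKM, had −3.77, and Vps29, of the retromer, had −3.63. Of 11 glycolytic genes none was higher and 3 were lower, but relative to the member median 4 were higher and none lower. Pfkfb3, which makes an activator of phosphofructokinase, had 0.91, while Tpi1 had −1.44, Ldha −1.20 and Gpi1 −1.16. Glycolytic genes thus covered a range of only 2.35 log2 units.

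Below the member median lay nuclear transport, kinase signalling and transcription factors of stem cells. Of 10 nuclear transport genes 2 were higher and 6 lower (median −1.77), or 2 and 5 relative to the member median. Alyref, an mRNA export adaptor, was at 264, 76.0, 42.3 and 162 FPKM, with −3.69. Nxf1, the mRNA export receptor that such adaptors load, was at 51.3, 75.9, 49.0 and 16.5 FPKM, with 2.07. Partners in one export step thus had differences of opposite sign. The 60 splicing factors had 7 higher and 28 lower, or 14 and 13 relative to the member median, from Srsf9 at −4.60 to Snrpf at 2.26, with a median of −0.84.

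Lists of kinase pathways that VEGFR3 can engage had medians below the member median. So did lists outside these pathways, such as extracellular matrix and adhesion (relative median −0.52) and lipid carriers (−0.51). Of 7 MAP kinase genes none was higher and 5 were lower, with a median of −1.99; relative to the member median 1 was higher and 3 lower. Rap1b, a small GTPase of the Ras family, was at 271, 68.5, 52.9 and 166 FPKM, with −3.60, and Grb2, the adaptor that links receptor kinases to Ras, had −2.79. Nras was the highest at 59.96, 107, 96.1 and 97.1 FPKM, with 0.81. Among 15 genes of PI3K, mTOR and insulin signalling 1 was higher and 11 lower, or 2 and 4 relative to the member median, with a relative median of −0.23. Akt1 had −2.24 and Rheb, the activator of mTOR, −2.71, while Tsc22d1 had 2.52.

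The genes that ERK switches on were few among the members. All 5 of them, of 23 on the list, had negative differences, and 3 were at least 2-fold lower. Most members shared that sign as deposited, since the upper quartile of the difference over all members was −0.15. The negative feedback regulator Spry2 was at 1534, 782, 70.3 and 124 FPKM, with −1.78. Dusp1, a phosphatase of MAP kinases, was at 18.0, 45.1, 10.1 and 131 FPKM, with −2.30; it was higher with VEGF-C in both populations. Egr1 was at 194, 131, 187 and 232 FPKM, with −0.86. Relative to the member median these genes had 0 higher and 1 lower, a median of −0.21.

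**Figure D4:**
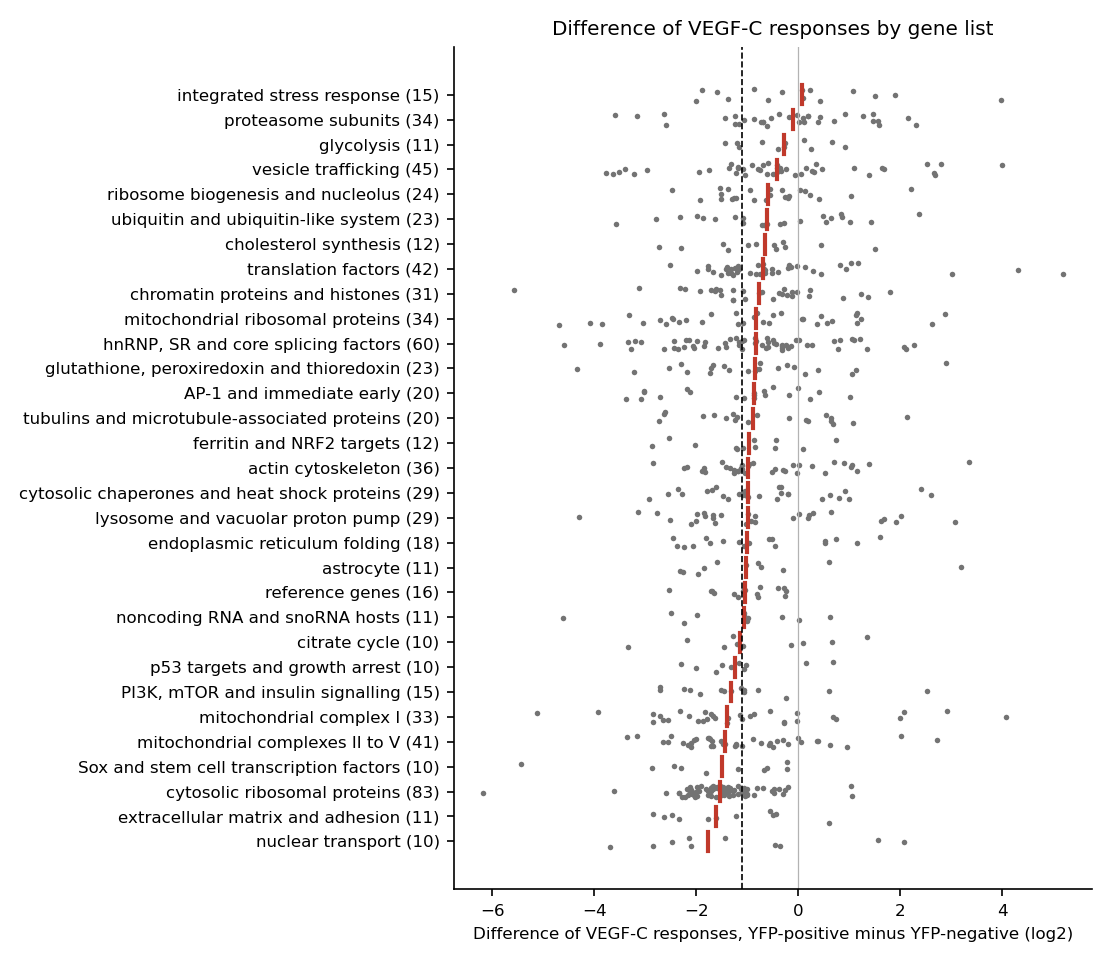
Difference of VEGF-C responses (log2) for lists with at least 10 member genes, 1 point per gene (shifted vertically at random), with the number of members in parentheses. Red bars are list medians and the dashed line is the member median of −1.10; medians run from 0.062 for the integrated stress response to −1.77 for nuclear transport, and the points of most lists cover several log2 units on both sides of the dashed line.

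The integrated stress response had the highest median of the lists with at least 10 members. In this pathway, stress kinases slow translation and raise the factor ATF4, which switches on genes of amino acid synthesis and of the unfolded protein response. Of 22 genes on the list 15 were members; 4 were higher and 4 lower (median 0.062), and relative to the member median 8 were higher and none lower. Asns, the asparagine synthetase, was at 11.2, 114, 270 and 161 FPKM, with 3.98. Its level was low in the untreated YFP-positive library, where 140 implied fragments gave an interval of 9.42 to 13.2 FPKM. Xbp1, a factor of the unfolded protein response, had the same low library at 11.2, 72.3, 62.7 and 102 FPKM, with 1.89.

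Gadd45g, a growth arrest gene, was at 112, 273, 341 and 293 FPKM, with 1.49, and Phgdh, which opens serine synthesis, at 95.5, 208, 171 and 176 FPKM, with 1.07. In both, the untreated YFP-positive library was the low one and the other 3 were close to each other. Atf4 itself went the other way at 1084, 421, 367 and 529 FPKM, with −1.89. Gadd45a at −2.01 and Nupr1 at −1.59 shared its order of YFP-positive levels. Ddit3 (CHOP) was at 446, 434, 1259 and 1524 FPKM, with −0.32, and so was higher in both YFP-negative libraries at either treatment.

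ATF4 and its partners bind a composite element, searched here as TGATGNAAN on both strands in windows from 250 bases before to 50 after the start of each gene (RefSeq promoters, build GRCm38.p6). It was found in 4 of 15 members of the list (26.7%), in 45 of 1735 members with a promoter in that table (2.59%) and in 1215 of all 27025 promoters (4.50%). The list was chosen by pathway, and genes that ATF4 switches on belong to it, so its higher share is no separate finding. The 100 highest differences had it in 4 of 66 promoters (6.06%) and the 100 lowest in 6 of 76 (7.89%). The 4 list genes are shown because they had the element but not a common difference of responses: Asns 3.98, Gadd45g 1.49, Atf3 −0.88 and Nupr1 −1.59. Each sequence is the 250 bases before the gene's RefSeq start, read on the gene's strand, with the match in capitals. Matches begin 23, 102, 111 and 111 bases before that start. In GENCODE M21 the Asns gene begins at base 7693254, so its match lies within the gene by that annotation. Asns lies at chr6:7693210-7693459 (minus strand), Gadd45g at chr13:51846425-51846674 (plus), Atf3 at chr1:191183334-191183583 (minus) and Nupr1 at chr7:126625471-126625720 (minus).
Asns: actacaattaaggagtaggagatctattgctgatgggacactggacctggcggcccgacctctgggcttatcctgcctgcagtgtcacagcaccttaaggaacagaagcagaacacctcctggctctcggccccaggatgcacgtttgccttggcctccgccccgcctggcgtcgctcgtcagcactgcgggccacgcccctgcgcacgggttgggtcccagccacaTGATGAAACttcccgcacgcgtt
Gadd45g: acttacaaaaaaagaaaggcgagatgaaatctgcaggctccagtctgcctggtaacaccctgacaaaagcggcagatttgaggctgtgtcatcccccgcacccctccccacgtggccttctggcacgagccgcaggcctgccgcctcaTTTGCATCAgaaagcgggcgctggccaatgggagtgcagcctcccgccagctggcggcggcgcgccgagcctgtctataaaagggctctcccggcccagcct
Atf3: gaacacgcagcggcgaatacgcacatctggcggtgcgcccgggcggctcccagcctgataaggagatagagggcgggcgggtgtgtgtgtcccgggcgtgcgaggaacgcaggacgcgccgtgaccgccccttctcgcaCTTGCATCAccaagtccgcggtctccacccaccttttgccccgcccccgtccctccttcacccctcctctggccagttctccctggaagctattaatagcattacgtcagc
Nupr1: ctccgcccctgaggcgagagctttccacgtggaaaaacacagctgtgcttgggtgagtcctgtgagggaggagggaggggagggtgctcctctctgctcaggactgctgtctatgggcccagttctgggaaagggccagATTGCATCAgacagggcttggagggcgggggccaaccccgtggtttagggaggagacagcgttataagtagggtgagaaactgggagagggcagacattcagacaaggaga
In Asns the element reads forward on the gene's strand, and in the other 3 in reverse. A match is a string of letters and not a measured binding site.

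**Figure D5:**
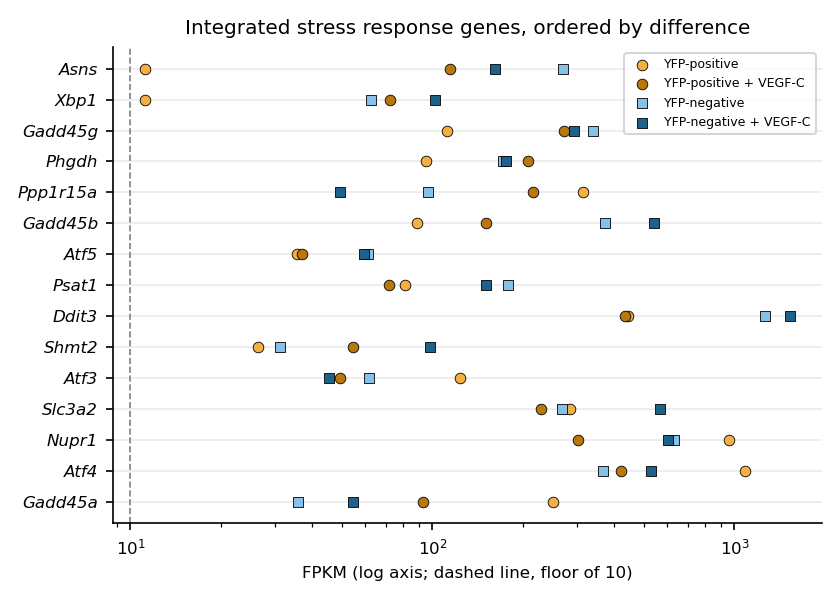
FPKM in each of the 4 libraries (log axis) for the 15 member genes of the integrated stress response list, ordered from the highest difference of responses (Asns, top) to the lowest (Gadd45a, bottom), 1 symbol per library. In Asns and Xbp1 the untreated YFP-positive library lies near the dashed floor of 10 FPKM, while in Atf4, Nupr1 and Gadd45a it is the right-most symbol.

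Marker genes of cell types among the members did not share a direction. Clu (clusterin), a secreted chaperone abundant in astrocytes, was at 441, 717, 103 and 17.5 FPKM, with 3.20. The 3 metallothioneins, zinc-binding proteins abundant in astrocytes, were all lower: Mt1 with −2.32, Mt2 with −2.26 and Mt3 with −1.97. Vim, the filament protein of radial glia, stood at 2333, 1215, 184 and 691 FPKM, with −2.85. Sox2, the stem cell transcription factor, was at 114, 42.1, 31.2 and 58.0 FPKM with a difference of −2.30, and Nes (nestin) at 39.0, 43.2, 82.3 and 78.0 FPKM with a difference of 0.22. Of 11 astrocyte markers that were members, 1 was higher and 6 lower, or 2 and 2 relative to the member median, shares like those of all members.

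None of 10 Sox and stem cell transcription factors was higher and 6 were lower, with a median of −1.500. Apart from Sox10, the lowest were Sox4 with −2.88 and Nfib with −2.44, and the highest was Tcf12 with −0.22. Against the member median, 4 of the 10 were lower and none higher, but with floors of 20 and 50 FPKM the relative median turned from −0.40 to 0.43 and 0.40. Of 8 oligodendrocyte markers 2 were higher and 3 lower, or 4 and 1 relative to the member median. Mal, a proteolipid of myelin, stood at 143, 13.9, 226 and 297 FPKM, with −3.67, at the end opposite to Car2. Cryab, a small heat shock protein, was at 541, 417, 1269 and 3179 FPKM, with −1.70.

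Summed marker levels changed between libraries along with these genes. The 26 astrocyte markers summed to 14972, 9716, 3321 and 6695 FPKM, the 15 markers of oligodendrocyte precursors to 316, 55.6, 338 and 630, and the 27 microglial markers to 1328, 600, 2481 and 5112. Of these, 0, 0, 2 and 4 astrocyte markers, 7, 2, 4 and 9 precursor markers and 6, 8, 2 and 5 microglial markers were listed at 0. Each of these 3 sums was lower with VEGF-C in YFP-positive cells and higher with it in YFP-negative cells, and so were those of radial glia, immature neuron, mature neuron and blood markers and the summed FPKM of all genes. Other sums did not follow this pattern. The oligodendrocyte sum was 1295 and 1348 in untreated and treated YFP-positive cells, with 2 and 1 of 26 markers listed at 0. In the same libraries the endothelial sum was 141 and 159, and that of ependyma and choroid plexus 1.36 and 22.7. The sum of mural cell and fibroblast markers was 39.6 and 1.95 in untreated and treated YFP-negative cells. Many markers of these last 3 lists were listed at 0. In pooled cells, fewer cells of a type and less RNA per cell cannot be told apart, and the part of cell mixture in the differences was not tested.

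Some genes responded alike in both populations, which places most of them near 0 and above the member median. The 5 that were higher with VEGF-C by the widest margin in both were Thoc7, of the mRNA export complex TREX, Ifi27l1, the tetraspanin Cd151, the helicase Ruvbl2 and the proteasome activator Psme1. Psme1 was at 11.6, 49.1, 22.3 and 80.1 FPKM, and Cd151 at 21.3, 83.3, 26.3 and 116 FPKM. The 5 that were lower by the widest margin in both were Ssr4, of the protein translocon (1.61), 2810008D09Rik, Ppp1cc, the ubiquitin ligase Rnf181 and Farsa, a subunit of phenylalanyl-tRNA synthetase. Rnf181 was at 107, 31.0, 106 and 30.02 FPKM, nearly the same pair of levels in each population, with a difference of 0.027. Farsa was at 357, 96.7, 45.0 and 12.7 FPKM, with −0.13.

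The most abundant genes past 2-fold were ordinary ones at the low end. Fth1, the heavy chain of ferritin, was at 15214, 11289, 29043 and 45972 FPKM, with −1.09. Actb was at 11327, 6529, 4818 and 6345 FPKM, with −1.19, and Rpl41 had −1.46. Relative to the member median these 3 had 0.0067, −0.092 and −0.36. At the high end the most abundant were Car2, Sec11c, of the signal peptidase, at 17.4, 140, 938 and 1302 FPKM (2.47), and Mir703 at 760, 982, 771 and 128 FPKM (2.95). The last value of Mir703 came from 3 implied fragments, with an interval of 26.4 to 374 FPKM, since a very short transcript turns few fragments into a high FPKM.

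Of 16 reference genes, which are widely used as constant standards, none was higher and 9 were lower. Their median of −1.05 lay 0.048 above the member median, and relative to it none was higher and 1, Tfrc at −2.54, was lower. Ywhaz was the highest at 725, 561, 402 and 366 FPKM, with −0.24. B2m had −1.70 and Sdha −1.71.

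No VEGF receptor, ligand or co-receptor reached 10 FPKM in all libraries, so none is among these genes. Flt4, the receptor used for the sort, was listed at 0, and at 2.01, 0.0584 and 0.348 FPKM in the other 3 libraries. Kdr (VEGFR2) was listed at 0 in both untreated libraries and stood at 1.02 and 23.1 FPKM in the treated ones. Vegfc was listed at 0 in all 4. Vegfa came closest to the floor at 75.9, 10.9, 10.8 and 7.82 FPKM, and Nrp1 was at 17.4, 6.59, 5.16 and a listed 0.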

How the data were processed

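RNA was sequenced from 4 pooled libraries. Amplified cDNA (SMARTer Ultra Low kit, per the labels' protocols) was read in pairs of 75 bp. Per the submitters' processing notes, reads were mapped to mm10 with TopHat 2.0.9, Bowtie 2.1.0 served as its aligner, SAMtools had version 0.1.18, and Cuffdiff of Cufflinks 2.1.1 estimated levels. Of the annotation, the version is not given in the sources. The authors deposited a table of FPKM and one of normalized counts, a signal scaled per library. Of 23361 rows, 27 with calendar-date names were left out (0.251% to 0.317% of the normalized counts). Low normalized counts lay within 0.05 of a whole multiple of a step in 99.0% to 99.6% of cases; dividing by the step gave implied fragments and exact 95% Poisson intervals. Differences are on the log2(FPKM + 1) scale, which understates low genes, and 2-fold was the size counted. The arithmetic was tested on simulated Poisson counts with the same gene content in all 4 libraries. That simulation had no split in gene content and no amplification noise, so it bears on the arithmetic only. With 1 library per group no test was possible.

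The members, the 55 gene lists and the comparison were chosen with earlier results of these data known; the 10 complexes were picked after their values were seen. Genes are named as the 15 highest and 15 lowest differences, the extreme members of each list with at least 5, the 5 of each kind of joint response, the 3 on either side of the floor, the 3 most abundant at each end, the VEGF genes and member cell markers. A few of these genes are not reported here. Transcript features came from GENCODE M21 and promoters from RefSeq (GRCm38.p6). Alternatives were other pseudocounts, floors, scalings and the normalized counts. Python 3.11.15, numpy 2.4.6, pandas 2.3.3, SciPy 1.17.1 and matplotlib 3.10.9 were used.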

Additional observations from a re-analysis of the deposited data

Results flagged for a closer look

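A total of 21 genes at the ends of the ordering responded to VEGF-C by at least 2-fold in opposite directions in the 2 populations. The difference itself was not tested, since each group had 1 library, and the genes were chosen by the same values. In 14 of these 21 genes the level was lower with VEGF-C in YFP-positive and higher in YFP-negative cells. Their differences were −6.18 for Rpl34, −6.002 for 2310039H08Rik, −5.74 for Slc50a1, −5.57 for Hist3h2ba, −5.46 for Cdk17, −5.45 for Sox10, −5.35 for Syngr1, −5.19 for Aes, −5.13 for both Ndufs1 and Kdelr1, −5.08 for Sptssa, −5.02 for Ddr1, −4.81 for Strn4 and −4.80 for Glyr1. In the other 7 the responses were reversed, with 4.93 for Rnps1, 4.65 for Gpd1, 3.99 for Plat, 3.98 for Cope, 3.82 for 2900097C17Rik, 3.65 for Trappc4 and 3.62 for Api5. All 21 were high in 2 libraries of one gene content and low in the 2 of the other, which cannot be told apart from opposite responses.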

How the results depend on the processing

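The direction of the median difference depends on the scaling of the libraries. It was −1.10 as reported, 0.082 after scaling to the median of ratios over the members, 1.32 after scaling to the upper quartile of genes above 0 and −0.19 after equal sums of FPKM; with a pseudocount of 10 it was −0.98 and with a mean of at least 20 FPKM in place of the floor −0.66. In the same order of scalings, the 208 higher genes became 584, 1367 and 469 and the 1226 lower genes 466, 118 and 607, the 178 higher and 768 lower in YFP-positive cells became 382 and 323, 777 and 99, and 366 and 339, and the 701 higher and 165 lower in YFP-negative cells became 272 and 356, 76 and 787, and 397 and 248. Higher genes numbered 362, 103 and 29 with floors of 5, 20 and 50 FPKM and 1076 with the mean of 20, and lower genes 443 with the floor of 50. At 4-fold the counts were 71 and 561. The interquartile range of 1.84 became 1.57 with a pseudocount of 10, 2.10, 1.62 and 1.40 with the 3 floors and 3.20 with the mean of 20. Floors and the mean change which genes enter. Scalings move every gene by nearly the same amount, apart from the effect of the pseudocount. Beyond that the cause was not tested. Relative to the member median, the medians of 39 lists stayed within their intervals in 429 comparisons but 2, both with the mean of 20. These intervals come from the ranks of a list's own genes, which are not replicates, and they span most of a short list. Values relative to the member median also lose nearly all of a scaling by construction. Staying within the intervals is therefore weak evidence of stability. The sign changed in 23 comparisons, over 16 lists, none of them under a scaling. The differences of 143 named genes relative to the member median had 2 changes of sign in 1001 comparisons, neither in a gene at least 2-fold from that median; they stayed within counting error for 33 of the genes with a pseudocount of 10 and for 133 to 141 under the other 6 alternatives. No paired analysis was possible because each group had 1 library, and leaving out a library gives no value of the difference. Depth limits single genes where a level rests on few implied fragments, as for Mir703.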

Other observations

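By the share of all members, 9.14% were higher and 53.9% lower in the difference of responses, and relative to the member median 24.3% and 22.7%. Of 23 genes of the glutathione, peroxiredoxin and thioredoxin systems 3 were higher and 10 lower, or 6 and 5 relative to the member median. Gsr, the glutathione reductase, stood at 144 and 32.2 FPKM in the untreated and treated YFP-positive libraries, then 23.3 and 112 FPKM in the YFP-negative ones, a difference of −4.34. Gss, which completes glutathione synthesis, had −3.23. The mitochondrial thioredoxin Txn2 was at 18.3, 146, 186 and 190 FPKM, with 2.90, whereas the cytosolic Txn1 was at 879, 350, 197 and 458 FPKM, with −2.54. The pair of thioredoxins thus stood on opposite sides of the member median.

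Of 20 genes of AP-1 and the immediate early response, 1 was higher and 9 lower, or 4 and 7 relative to the member median. Zfp36, which speeds the decay of inflammatory mRNAs, was at 122, 68.3, 65.0 and 388 FPKM, with −3.39, and Mcl1, an inhibitor of apoptosis, at 89.8, 34.0, 25.2 and 81.8 FPKM, with −3.04. Sertad1 was the highest with 1.02. Of 12 cholesterol synthesis genes, 1 was higher and 4 lower (2 and 2 relative), from Pmvk at −2.74 to Sc5d at 1.497. Of 10 genes of the p53 response none was higher and 8 were lower (2 and 1 relative); Trp53 itself had 0.67 and its regulator Mdm2 −2.31. Of 11 noncoding RNA genes none was higher and 7 were lower (2 and 3 relative). Rpph1, the RNA of ribonuclease P, was the lowest of these at 140, 21.9, 76.9 and 306 FPKM, with −4.61, and Neat1, the scaffold of paraspeckles, had −2.25.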
